A study of Mus musculus with 9 samples.

Results

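The renin-angiotensin and endothelin systems were followed through 9 genes taken by name: Agt, Ace, Enpep, Agtr1a and Agtr2 of the angiotensin branch, and Edn1, Ece1, Ednra and Ednrb of the endothelin branch. All 9 were found among the 16698 genes with a row of their own, and all 9 passed the filter on low values. RNA was taken from left ventricles of outbred ICR/CD1 mice that were 14 days old. In transverse aortic constriction (TAC) a suture narrows the arch of the aorta and raises the pressure load on the left ventricle. There were 3 groups of 3 libraries: TAC performed on postnatal day 1 (day-1 TAC), TAC performed on postnatal day 7 (day-7 TAC), and a sham operation. The labels give no day for the sham operation, no sex, and no word on whether the libraries of a group came from separate or pooled animals, so the p-values below refer to the spread among these libraries, which may be technical. Since all hearts were taken at 1 age, age at surgery and time under load cannot be told apart between the TAC groups. The study set TAC in the first days of life, when the mouse heart can regenerate, against TAC a week after birth.

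Angiotensinogen, the product of Agt, is cut by renin to angiotensin I, which angiotensin-converting enzyme (Ace) turns into angiotensin II. The type 1 receptor (Agtr1a) carries the constricting, growth-promoting and fibrotic actions of angiotensin II, and the type 2 receptor (Agtr2), abundant in fetal tissue, often opposes them. Endothelin-1 (Edn1), released by endothelium and under stress by heart muscle, is made from a precursor by endothelin-converting enzyme 1 (Ece1) and acts through the type A receptor (Ednra) on muscle and through the type B receptor (Ednrb), which on endothelium relaxes vessels and clears the peptide.

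The deposited values are log2 levels scaled by the trimmed mean of M-values (TMM). Taken out of the log, the values of a library sum to between 959476 and 1053975, so a linear unit is a share of the library's reads. Reads recovered from the steps of these values were between 18538900 and 26529531 per library. Markers fixed for ventricular cardiomyocytes (Myh6, Myl2, Tnnt2 and 5 more) summed to 92620 to 118900 units in day-1 TAC, 106000 to 116000 in day-7 TAC and 123600 to 129900 in sham libraries. Markers of atrial muscle summed to 276.1 to 453.6, 126.0 to 352.1 and 194.5 to 291.5 in the same order. In day-7 TAC replicate 1 alone reached 352.1, against 126.0 in replicate 2 and 135.7 in replicate 3. Day-1 TAC replicate 1 had the lowest mean correlation with its own group, 0.979. Day-1 TAC replicate 3 had 10532 reads of Xist and 18 of Ddx3y, against at most 40 and at least 3312 in each of the other libraries. By these sex-linked transcripts it read as female and the others as male, so it came from other animals than the rest of its group. Whether animals differed among the other libraries of a group is not shown by these values.

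Against sham, 5 of the 9 genes were lower in day-1 TAC and none was higher: Agtr2, Ednra, Agtr1a, Ece1 and Enpep. In day-7 TAC 3 were lower than in sham and none was higher: Agtr1a, Agtr2 and Enpep. Between the TAC groups 4 were lower in day-1 TAC and none was higher: Agtr2, Agt, Ednra and Ece1. A call is an adjusted p under 0.05 in limma's moderated test, with Benjamini-Hochberg adjustment over the 13712 genes that passed the filter. The same rule called 34.8% of all tested genes in day-1 TAC against sham (20.5% lower, 14.3% higher), 28.9% in day-7 TAC against sham (15.1% lower, 13.8% higher) and 16.7% in day-1 against day-7 TAC (10.3% lower, 6.42% higher). The median log2 difference of the 9 genes was −0.43, −0.18 and −0.25 in these comparisons in that order, beside −0.04, −0.01 and −0.03 for all tested genes. None of the 9 was higher by limma's adjusted test, and at an unadjusted p under 0.05 the counts higher were 2, 1 and 1. The absence of higher calls in day-1 TAC against sham depended on the scaling. Scaling by total reads called 2 higher (Ace and Edn1) and 4 lower there, quantile normalization 1 higher (Ace) and 5 lower, and Ace was also called without day-1 TAC replicate 2 or day-7 TAC replicate 2. limma voom on the recovered reads called none higher. The balance over all genes turned with the scaling too. In day-1 TAC against sham 1963 genes were higher and 2813 lower as deposited, against 2842 higher and 1885 lower under scaling by total reads. In day-7 TAC against sham the counts were 1889 higher and 2073 lower as deposited, against 2435 and 1647. Between day-1 and day-7 TAC they were 880 higher and 1407 lower as deposited, against 1055 and 1039, and 1025 and 1088 under quantile normalization.

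The lower calls included large ones. Agtr2, Ednra and Agtr1a were down by more than 1 on the log2 scale in day-1 TAC against sham, a size reached downwards with a call by 3.42% of tested genes. Agtr1a alone did so in day-7 TAC against sham, where the share of tested genes was 2.49%. Agtr2 and Agt did so in day-1 against day-7 TAC, where the share was 1.23%.

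**Figure D1:**
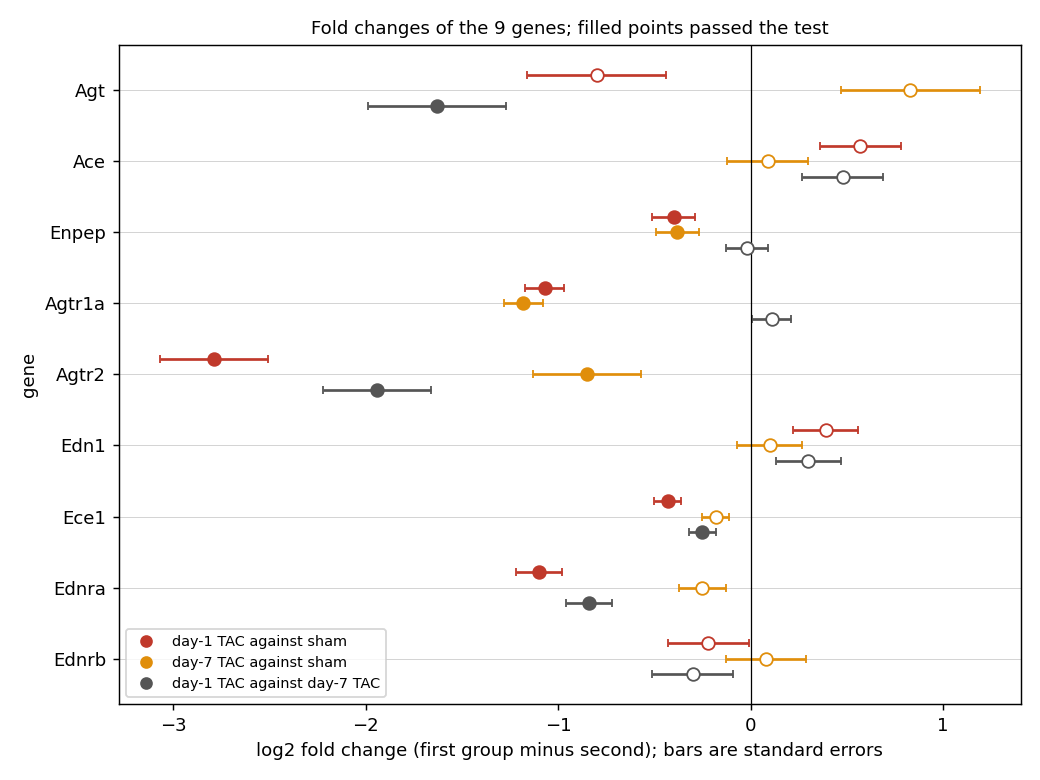
The plot gives the log2 difference of each of the 9 genes (horizontal axis, log2 units, bars are the standard error of the fit) in 3 comparisons, with filled symbols for adjusted p under 0.05. Agtr1a sits near −1 in both comparisons with sham, at −1.07 for day-1 TAC and −1.18 for day-7 TAC, while Agtr2 reaches −2.79 and −0.85 and Ednra −1.10 and −0.25.

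Of the angiotensin receptors, the type 1 receptor was lower in both TAC groups than in sham, and the type 2 receptor was lowest in day-1 TAC. Agtr1a, on chromosome 13 (30336441 to 30382867, plus strand, GRCm38), read 4.52, 4.72 and 4.85 on the log2 scale in day-1 TAC and 4.62, 4.58 and 4.57 in day-7 TAC, against 5.66, 5.89 and 5.75 in sham libraries. Every TAC library lay below every sham library, and the TAC groups overlapped each other. Agtr1a fell 2.10-fold in day-1 TAC against sham (log2 −1.07, SE 0.10, limma adjusted p = 0.000104) and 2.26-fold in day-7 TAC against sham (log2 −1.18, SE 0.10, adjusted p = 7.85e-05). These values rest on 461 to 589 reads in the 6 TAC libraries and 1014 to 1519 in sham libraries. Between day-1 and day-7 TAC the difference was 0.11 (SE 0.10, adjusted p = 0.478). In bulk tissue, fewer cells of a type and less RNA per cell cannot be told apart, here and in every result that follows. Mice have a near-identical second copy of the type 1 receptor gene, Agtr1b. It had no row of its own and was not analysed here, so reads shared between the copies are uncertain.

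Agtr2, on chromosome X (21484544 to 21489164, plus strand), was the scarcest of the 9 genes and differed between all 3 groups. Its log2 values were −1.22, −1.35 and −1.10 in day-1 TAC and 0.63, 1.06 and 0.46 in day-7 TAC, against 1.38, 1.99 and 1.32 in sham libraries. The reads behind them were 9, 8 and 9 in day-1 TAC and 37, 40 and 29 in day-7 TAC, against 52, 102 and 48 in sham libraries. The groups formed 3 steps with no overlap, lowest in day-1 TAC and highest in sham. It passed the filter through its day-7 TAC and sham libraries. Agtr2 fell 6.90-fold in day-1 TAC against sham (log2 −2.79, SE 0.28, limma adjusted p = 0.000152). The summed reads, set on the deposited TMM scale, gave a ratio of 0.138 (exact 95% interval 0.0878 to 0.208, counting error only). In day-7 TAC against sham it fell by 0.85 on the log2 scale (SE 0.28, adjusted p = 0.0416), a count ratio of 0.53 (0.415 to 0.673). Leaving out either of 2 day-7 TAC libraries (replicates 1 and 3) or any of the sham libraries ended that call, with adjusted p up to 0.171. With 1 unit added before the log, the day-1 TAC difference from sham was −1.47. Day-1 TAC replicate 3, the library that stood apart on Xist, had 9 reads of this X-linked gene, within the range of its group.

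Per kilobase of exon, Agtr1a stood 64.1, 79.7 and 74.0 times above Agtr2 in day-1 TAC libraries and 19.0, 13.8 and 20.6 times in day-7 TAC libraries, against 23.3, 17.8 and 25.7 times in sham libraries. The day-1 TAC ratios lay above all others, and those of day-7 TAC overlapped the sham range. The ratios are given as values and were not tested.

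The type A endothelin receptor was low after day-1 TAC. Ednra, on chromosome 8 (77663031 to 77724464, minus strand), had log2 values of 6.15, 6.23 and 6.45 in day-1 TAC and 7.25, 7.10 and 7.01 in day-7 TAC, against 7.44, 7.56 and 7.13 in sham libraries. All 3 day-1 TAC libraries lay below the other 6, and day-7 TAC overlapped sham. Ednra fell 2.14-fold in day-1 TAC against sham (log2 −1.10, SE 0.12, limma adjusted p = 0.00022) and 1.80-fold in day-1 against day-7 TAC (log2 −0.84, SE 0.12, adjusted p = 0.00233). In day-7 TAC against sham the difference was −0.25 (SE 0.12, adjusted p = 0.131), and it passed the test only without sham replicate 3 (−0.38, adjusted p = 0.0287). An antisense gene, 4933431K23Rik, covers 91 of its exon bases (1.7%), and the strand setting of the counting is not given in the sources used here. That gene had 197, 215 and 246 reads in day-1 TAC and 564, 384 and 484 in day-7 TAC, against 1012, 1066 and 633 in sham libraries, so it moved in the same direction, and its part in the Ednra result was not tested.

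The type B receptor showed no such difference. Ednrb, on chromosome 14 (103814625 to 103844402, minus strand), read 5.59, 5.02 and 5.64 in day-1 TAC and 5.66, 5.89 and 5.58 in day-7 TAC, against 6.10, 5.46 and 5.35 in sham libraries. The groups overlapped in every comparison. Its difference from sham was −0.22 in day-1 TAC (SE 0.21, limma adjusted p = 0.444) and 0.08 in day-7 TAC (SE 0.21, adjusted p = 0.804), and day-1 TAC stood at −0.30 against day-7 TAC (SE 0.21, adjusted p = 0.351). Per kilobase of exon, Ednra stood 1.15, 1.81 and 1.36 times above Ednrb in day-1 TAC libraries and 2.34, 1.80 and 2.09 times in day-7 TAC libraries, against 1.98, 3.34 and 2.68 times in sham libraries. The day-1 TAC ratios lay below all sham ratios and overlapped the lowest of day-7 TAC, and they were not tested.

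Ednra and Agtr1a, the receptors that act on vascular and heart muscle, parted from each other in day-7 TAC. Their ratio per kilobase was 1.57, 1.46 and 1.54 in day-1 TAC libraries and 3.15, 2.91 and 2.77 in day-7 TAC libraries, against 1.75, 1.61 and 1.33 in sham libraries. Day-7 TAC stood above both other groups, which overlapped. Both receptors passed the test against sham in day-1 TAC, and of the pair Agtr1a alone passed it in day-7 TAC. The ratio itself was not tested.

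**Figure D2:**
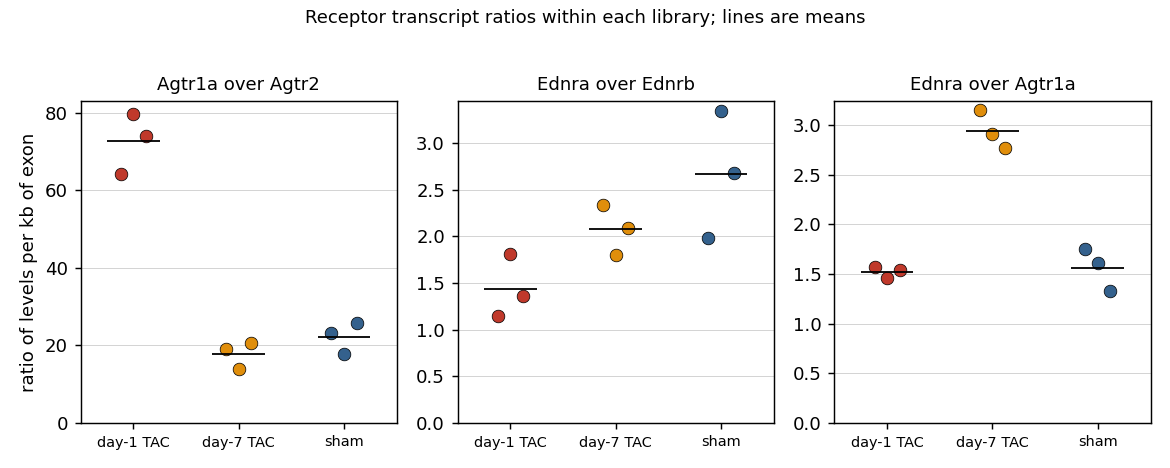
Each panel plots 1 ratio of levels per kilobase of exon (vertical axis, no unit) for the 3 libraries of day-1 TAC, day-7 TAC and sham. Agtr1a over Agtr2 lies between 64.1 and 79.7 in day-1 TAC and between 13.8 and 25.7 in the other groups, and Ednra over Agtr1a lies between 2.77 and 3.15 in day-7 TAC and between 1.33 and 1.75 in the others.

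The precursor of the angiotensins separated the TAC groups from each other. Agt, on chromosome 8 (124556534 to 124569706, minus strand), had log2 values of 1.54, 1.78 and 2.33 in day-1 TAC and 4.37, 3.09 and 3.08 in day-7 TAC, against 3.23, 2.32 and 2.49 in sham libraries. Every day-1 TAC library was below every day-7 TAC library, and the sham libraries overlapped both TAC groups. Agt was 3.09-fold lower in day-1 than in day-7 TAC (log2 −1.63, SE 0.36, limma adjusted p = 0.0148). Neither group passed against sham, at −0.80 for day-1 TAC (SE 0.36, adjusted p = 0.113, or 0.0439 without day-7 TAC replicate 1) and 0.83 for day-7 TAC (SE 0.36, adjusted p = 0.111). The highest day-7 TAC library, replicate 1, had 495 reads where the other two had 164 and 178, and without it the difference between day-7 TAC and sham was 0.40. The difference between the TAC groups was between −1.85 and −1.20 when any 1 library was left out and kept its call each time. Of all 18 alternatives 1 ended the call, a block that pairs same-numbered TAC libraries (limma adjusted p = 0.0571). Liver is the main source of angiotensinogen, so liver transcripts were looked at: of 4 listed, Ttr and Ahsg were in the table and Alb and Apoa1 were not analysed here. Their summed level was 2.263 to 4.044 in day-1 TAC and 5.031 to 6.468 in day-7 TAC, against 6.349 to 11.23 in sham libraries. Ttr was lower in day-1 than in day-7 TAC (log2 −1.67, adjusted p = 0.0109), as Agt was, with 7, 11 and 12 reads in day-1 TAC and 32, 29 and 38 in day-7 TAC. Ahsg was not called there (log2 −0.71, limma adjusted p = 0.119). Against sham Ahsg was lower in day-1 TAC (−1.66, adjusted p = 0.00221) and in day-7 TAC (−0.94, adjusted p = 0.0353), where Agt stood at 0.83. The part of liver transcripts in the Agt result was not tested.

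The enzymes of the angiotensin branch moved little. Ace, on chromosome 11 (105967945 to 105989964, plus strand), read 6.59, 5.71 and 5.89 in day-1 TAC and 5.75, 5.25 and 5.74 in day-7 TAC, against 5.53, 5.37 and 5.59 in sham libraries. All day-1 TAC values were above all sham values, but replicate 1 carried much of it, and the difference of 0.57 (SE 0.21) missed the threshold with a limma adjusted p of 0.0568. It was 0.30 without day-1 TAC replicate 1 and 0.74 without replicate 2, with adjusted p between 0.0245 and 0.164 over the alternatives. The difference was 0.09 in day-7 TAC against sham (SE 0.21, adjusted p = 0.789) and 0.48 in day-1 against day-7 TAC (SE 0.21, adjusted p = 0.135). An antisense gene, Gm11651, covers 295 of the exon bases of Ace (5.6%), with 39 to 111 reads per library.

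Enpep codes for aminopeptidase A, which trims angiotensin II to angiotensin III, and lies on chromosome 3 (129269175 to 129332720, minus strand). It read 3.91, 3.76 and 3.64 in day-1 TAC and 3.80, 3.76 and 3.81 in day-7 TAC, against 3.99, 4.34 and 4.17 in sham libraries. All 6 TAC libraries lay below the sham libraries, by a small margin. It fell by 0.40 in day-1 TAC (SE 0.11, limma adjusted p = 0.0203) and by 0.38 in day-7 TAC (SE 0.11, adjusted p = 0.0299) on the log2 scale. Scaling by total reads ended both calls (adjusted p = 0.0711 for day-1 TAC and 0.0627 for day-7 TAC). Leaving out sham replicate 2 ended both as well (0.0867 and 0.118), as did leaving out day-1 TAC replicate 3 for day-1 TAC, and any day-7 TAC library or sham replicate 3 for day-7 TAC.

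Of the endothelin ligand and its enzyme, only the enzyme passed the test, though their differences in day-1 TAC against sham were of similar size. Edn1, on chromosome 13 (42301476 to 42307990, plus strand), with 35 exon bases (1.6%) under an antisense gene, Gm47118, read 4.09, 3.82 and 3.71 in day-1 TAC and 3.26, 3.82 and 3.65 in day-7 TAC, against 3.25, 3.65 and 3.54 in sham libraries. The day-1 TAC libraries were all above the sham libraries, and the difference of 0.39 (SE 0.17) had a limma adjusted p of 0.0921, which became 0.0464 under scaling by total reads. Day-7 TAC differed from sham by 0.10 (SE 0.17, adjusted p = 0.696). Ece1, on chromosome 4 (137862237 to 137965229, plus strand), read 6.72, 6.57 and 6.72 in day-1 TAC and 6.96, 6.95 and 6.85 in day-7 TAC, against 7.15, 7.06 and 7.10 in sham libraries. The 3 groups did not overlap, with steps that were small and narrow. Ece1 fell by 0.43 on the log2 scale in day-1 TAC against sham (SE 0.07, adjusted p = 0.00125), and its difference in day-7 TAC against sham, −0.18, missed the threshold (SE 0.07, adjusted p = 0.072). The difference between day-1 and day-7 TAC was −0.25 (SE 0.07, adjusted p = 0.0318), a call that 8 of 18 alternatives ended, with adjusted p up to 0.101.

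Groups without overlap were frequent. They were found for 7 of the 9 genes in day-1 TAC against sham (5 lower, 2 higher), beside 48.0% of all tested genes (27.7% lower, 20.3% higher). They were found for 4 in day-7 TAC against sham (all lower), beside 46.7% (24.3% lower, 22.4% higher), and for 4 in day-1 against day-7 TAC (all lower), beside 38.9% (23.3% lower, 15.6% higher). In the test of any difference between the 3 groups, 6 of the 9 genes passed (Agt, Enpep, Agtr1a, Agtr2, Ece1 and Ednra), beside 44.4% of tested genes, and Ace, Edn1 and Ednrb did not.

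**Figure D3:**
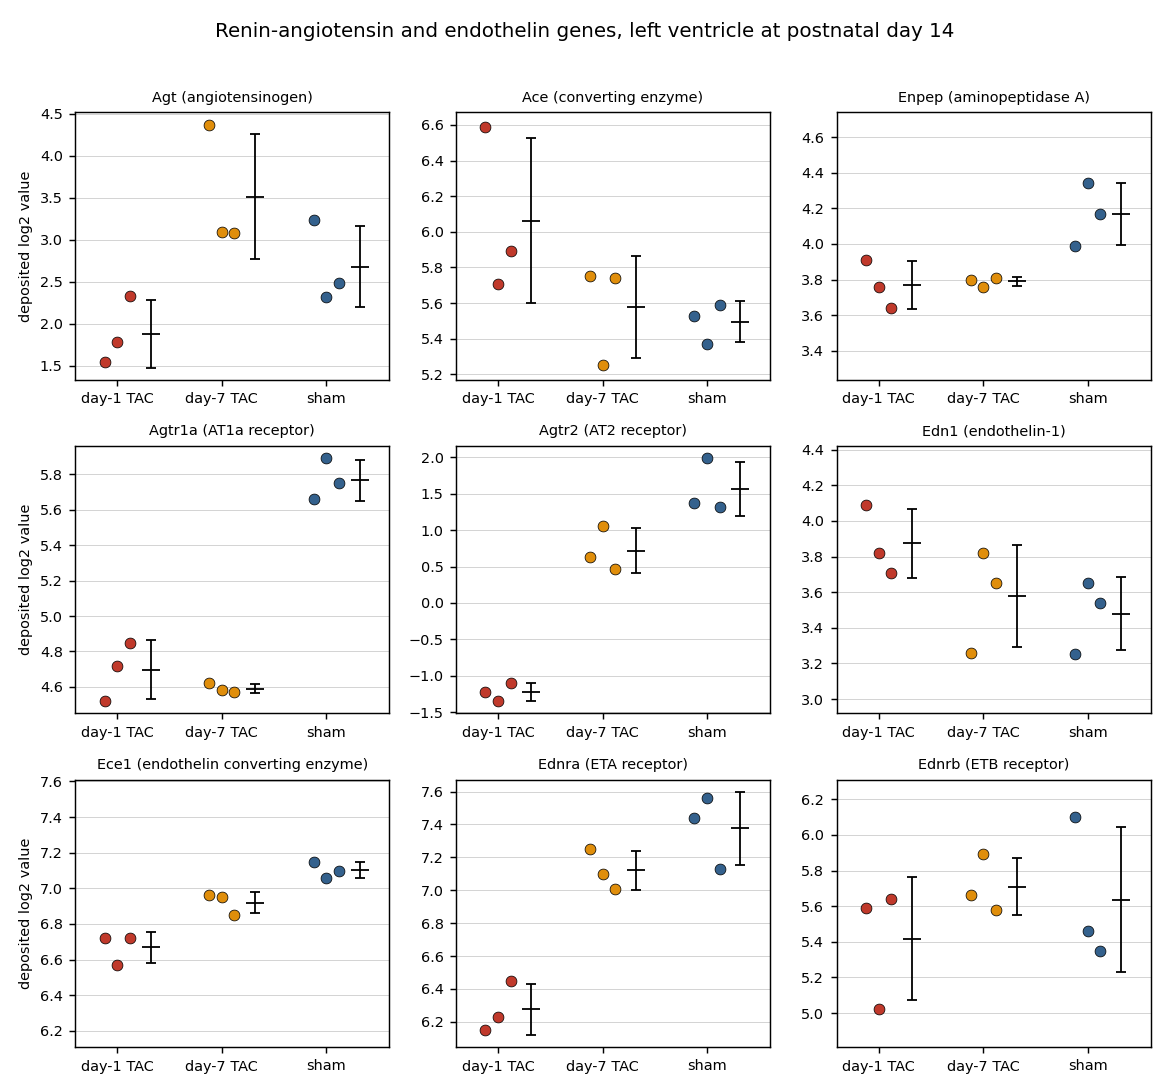
Each of the 9 panels plots the deposited log2 value (vertical axis, TMM-scaled) of 1 gene in the 3 libraries of day-1 TAC, day-7 TAC and sham, with the mean and SD as a bar. Agtr1a shows both TAC groups below sham, Ednra shows day-1 TAC alone at the bottom, Agtr2 and Ece1 show 3 steps, and Ednrb shows overlap throughout.

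The order of the 9 genes by level was read per kilobase of exon, on the linear scale. In day-1 TAC it was Ece1 at 19.2 ± 1.14, Ednra at 14.2 ± 1.55, Ace at 13.1 ± 4.45, Ednrb at 10.2 ± 2.26, Agtr1a at 9.36 ± 1.06, Edn1 at 6.89 ± 0.944, Enpep at 2.90 ± 0.273, Agt at 2.01 ± 0.584 and Agtr2 at 0.129 ± 0.011 units per kilobase (SD, n = 3). The neighbours Ednra and Ace, Ace and Ednrb, Ednrb and Agtr1a, and Enpep and Agt overlapped in their libraries. In day-7 TAC Ednra led at 25.5 ± 2.16 and Ece1 followed at 22.9 ± 0.973, with Ednrb at 12.4 ± 1.41, Ace at 9.165 ± 1.71, Agtr1a at 8.65 ± 0.156, Agt at 6.63 ± 3.71, Edn1 at 5.65 ± 1.07, Enpep at 2.94 ± 0.0565 and Agtr2 at 0.501 ± 0.111 below them. There Ace overlapped Agtr1a, and Agt overlapped Agtr1a above it and Edn1 below it. In sham libraries Ednra at 30.6 ± 4.53 and Ece1 at 25.9 ± 0.851 overlapped, and Agtr1a came next at 19.6 ± 1.59, with no overlap with the genes beside it. Ednrb at 11.97 ± 3.57, Ace at 8.55 ± 0.679, Edn1 at 5.26 ± 0.743, Enpep at 3.83 ± 0.459, Agt at 3.53 ± 1.25 and Agtr2 at 0.910 ± 0.250 followed, of which Enpep and Agt overlapped. Agtr1a was thus the fifth in both TAC groups and the third in sham, and Agtr2 the last in all.

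**Figure D4:**
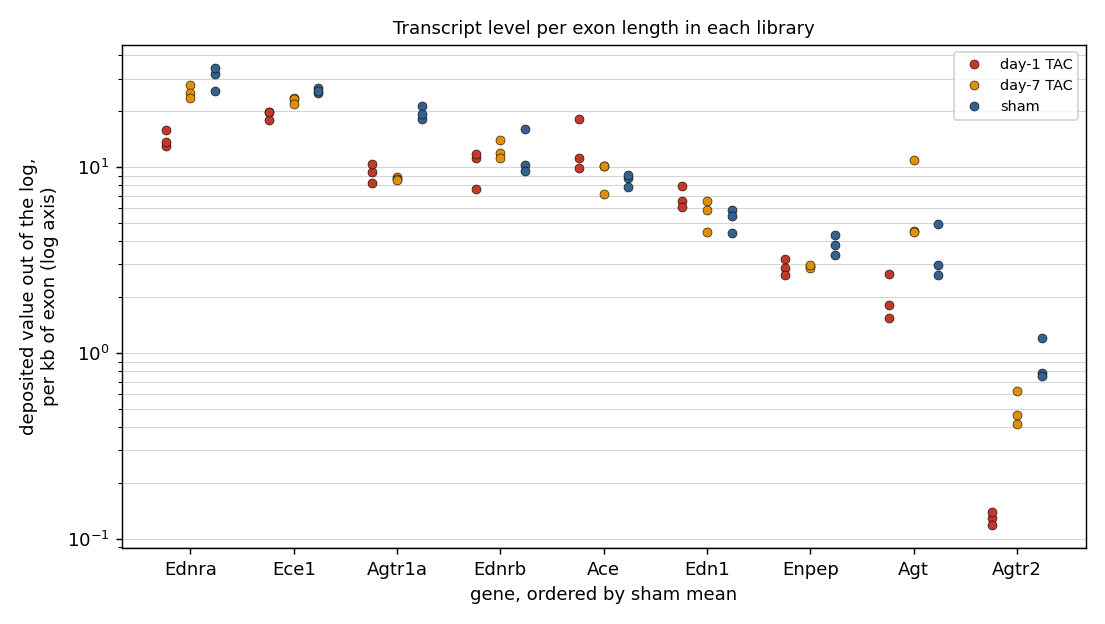
Levels of the 9 genes per kilobase of exon (log axis, TMM-scaled units) are drawn for each library of day-1 TAC, day-7 TAC and sham. Ednra and Ece1 hold the first 2 places in each group, with Ednra at 14.2 in day-1 TAC, 25.5 in day-7 TAC and 30.6 in sham on average, and Agtr2 lies below all others in each group.

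The bases before the RefSeq start of 3 of these genes are shown because their levels separated the TAC groups most, with those of Edn3, the endothelin gene described next. They are credited to RefSeq on GRCm38.p6, 150 bases each, and run in the sense of the gene. Capitals mark matches to any of 5 motifs searched on both strands. They are TGANTCA, read by AP-1, and AGATAA or its variant TGATAA, read by factors of the GATA family. The others are ACGTG, the core of the hypoxia element, GGAAA, the core read by NFAT, and TATAAA, the string of promoters that fix their start with a box of that name.
Agtr2, chrX:21484474-21484623 (+): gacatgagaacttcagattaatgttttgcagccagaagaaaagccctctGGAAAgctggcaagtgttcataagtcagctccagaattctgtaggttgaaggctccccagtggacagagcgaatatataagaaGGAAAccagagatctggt
Ednra, chr8:77724453-77724602 (−): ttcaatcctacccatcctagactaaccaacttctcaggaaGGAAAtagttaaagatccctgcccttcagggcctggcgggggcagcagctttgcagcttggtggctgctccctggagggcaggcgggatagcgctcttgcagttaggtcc
Agt, chr8:124569707-124569856 (−): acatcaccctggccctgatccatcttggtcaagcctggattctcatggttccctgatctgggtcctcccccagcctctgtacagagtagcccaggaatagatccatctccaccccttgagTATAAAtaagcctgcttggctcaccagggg
Edn3, chr2:174760469-174760618 (+): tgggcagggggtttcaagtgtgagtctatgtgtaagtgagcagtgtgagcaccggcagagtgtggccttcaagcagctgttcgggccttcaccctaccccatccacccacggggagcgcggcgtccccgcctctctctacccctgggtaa
The windows of Agtr2 and Ednra, whose levels were lower in day-1 TAC than in both other groups, hold GGAAA, and that of Agt holds TATAAA near its end, before the start. Of 32851 RefSeq windows of this length, 37.6% hold GGAAA, 7.57% TATAAA, 4.24% the AP-1 string, 9.65% a GATA string and 11.2% the hypoxia string, so GGAAA is common. The window of Edn3 holds none of the 5, which says only that these letters are not in it. Of the 9 genes 8 have windows in the RefSeq table used here, and Agtr1a is the one named only.

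Beyond the 9 genes, 31 others of the angiotensin, endothelin, kinin and mineralocorticoid systems were listed, of which 22 were in the table and 17 passed the filter. In day-1 TAC against sham 5 were higher and 5 lower, with a median log2 difference of 0.11, beside 34.8% called and a median of −0.04 over all tested genes. In day-7 TAC against sham 4 were higher and 6 lower, with a median of −0.27, beside 28.9% and −0.01. In day-1 against day-7 TAC 3 were higher and 1 lower, with a median of 0.05, beside 16.7% and −0.03. Renin (Ren1) was on the list, had no row of its own and was not analysed here.

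Edn3, endothelin-3, is a ligand chiefly of the type B receptor and is known for its role in the neural crest. It had 440, 134 and 170 reads in day-1 TAC and 32, 23 and 30 in day-7 TAC, against 8, 3 and 3 in sham libraries. The log2 values were 4.39, 2.72 and 3.14 in day-1 TAC and 0.42, 0.26 and 0.51 in day-7 TAC, against −1.32, −3.09 and −2.68 in sham libraries, in 3 steps with no overlap that run opposite to those of Agtr2. It passed the filter through the TAC libraries. Edn3 rose by 5.78 on the log2 scale in day-1 TAC against sham (SE 0.50, limma adjusted p = 8.68e-05), by 2.76 in day-7 TAC against sham (SE 0.50, adjusted p = 0.003) and by 3.02 in day-1 against day-7 TAC (SE 0.50, adjusted p = 0.0046). From the summed reads, set on the deposited TMM scale, the ratios were 56.9 (exact 95% interval 33.7 to 104.0), 6.13 (3.46 to 11.7) and 9.28 (7.40 to 11.8), for counting error only. Sham rests on so few reads that the size depends on the scale: with 1 unit added before the log the difference from sham was 3.27 in day-1 TAC and 0.93 in day-7 TAC, and limma voom gave an adjusted p of 0.0678 for day-7 TAC against sham. The differences of Edn1, by contrast, were 0.39, 0.10 and 0.30 in these comparisons and did not pass. Markers of melanocytes, a cell type that endothelin-3 serves in development, were read beside it: 4 of 6 were in the table and 3 passed the filter, while Tyrp1 and Tyr were not analysed here. Dct was higher in both TAC groups (log2 4.02 in day-1 TAC and 3.48 in day-7 TAC), with 531, 359 and 533 reads in day-1 TAC and 423, 280 and 331 in day-7 TAC, against 25, 38 and 30 in sham libraries. Mitf was lower in day-1 TAC (log2 −0.56) and Pmel was not called. The summed level of the 4 was 98.45 to 130.1 in day-1 TAC and 94.46 to 146.3 in day-7 TAC, against 135.6 to 146.5 in sham libraries, most of it Mitf. The mean log2 value of the 4 lay the other way, at 2.02 to 2.76 in day-1 TAC and 1.99 to 2.48 in day-7 TAC, against 1.61 to 1.83 in sham libraries, and the part of such cells in the Edn3 result was not tested.

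Enzymes that break down or reshape the peptides moved in both directions. Mme, neprilysin, which degrades angiotensins, endothelins and kinins, read 4.83, 5.21 and 4.81 in day-1 TAC and 3.10, 3.44 and 3.66 in day-7 TAC, against 4.41, 4.27 and 4.66 in sham libraries. The TAC groups lay on opposite sides of sham. Mme rose by 0.50 on the log2 scale in day-1 TAC against sham (SE 0.16, limma adjusted p = 0.0373), fell by 1.05 in day-7 TAC against sham (SE 0.16, adjusted p = 0.00152) and was 2.93-fold higher in day-1 than in day-7 TAC (SE 0.16 on the log2 scale, adjusted p = 0.000668). The first of these calls ended in 5 of 17 alternatives, with adjusted p up to 0.129: without day-1 TAC replicate 2, day-7 TAC replicate 2 or sham replicate 1 or 2, and without the intensity trend.

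Lnpep, the insulin-regulated aminopeptidase that binds angiotensin IV, fell by 0.78 in day-1 TAC against sham (SE 0.10, limma adjusted p = 0.000544), by 0.36 in day-7 TAC against sham (SE 0.10, adjusted p = 0.0256) and by 0.42 in day-1 against day-7 TAC (SE 0.10, adjusted p = 0.0216). Of the alternatives, 7 of 17 ended its call in day-7 TAC against sham and 5 of 18 that between the TAC groups, each single day-7 TAC library left out among them. Anpep, aminopeptidase N, fell by 0.65 in day-1 TAC (SE 0.15, adjusted p = 0.00782) and stood at −0.42 in day-7 TAC (SE 0.15, adjusted p = 0.0562). Prep, the prolyl oligopeptidase, rose by 0.68 in day-1 TAC (SE 0.11, adjusted p = 0.0013) and by 0.66 in day-7 TAC (SE 0.11, adjusted p = 0.00175). Ece2, the second endothelin-converting enzyme, rose by 0.97 (SE 0.17, adjusted p = 0.00197) and 0.74 (SE 0.17, adjusted p = 0.00915) in day-1 and day-7 TAC, on 94 to 148 reads per TAC library against 55 to 79 in sham libraries. Ece1 differed from sham in the other direction, by −0.43 and −0.18. Nln, neurolysin, rose by 0.41 in day-7 TAC (SE 0.12, adjusted p = 0.0254), a call that 5 alternatives ended.

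Agtrap, a protein that binds the type 1 receptor and promotes its internalisation, read 6.03, 5.82 and 6.0 in day-1 TAC and 5.26, 5.45 and 5.27 in day-7 TAC, against 5.43, 5.58 and 5.46 in sham libraries. It rose by 0.46 in day-1 TAC against sham (SE 0.09, limma adjusted p = 0.00282) and by 0.63 against day-7 TAC (SE 0.09, adjusted p = 0.00218), while day-7 TAC differed from sham by −0.17 (SE 0.09, adjusted p = 0.172). Nr3c2, the mineralocorticoid receptor through which aldosterone acts, fell by 0.92 in day-1 TAC (SE 0.16, adjusted p = 0.00233) and by 0.64 in day-7 TAC (SE 0.16, adjusted p = 0.0155) against sham. Hsd11b1, which regenerates active glucocorticoid, fell by 1.89 in day-1 TAC (SE 0.54, adjusted p = 0.021) and by 2.14 in day-7 TAC (SE 0.54, adjusted p = 0.0145) against sham. It had 25, 12 and 29 reads in day-1 TAC and 31, 11 and 18 in day-7 TAC, against an uneven 117, 146 and 31 in sham libraries, and without sham replicate 1 or 2 both calls ended (adjusted p up to 0.0835 and 0.0596). The call in day-1 TAC also ended without its replicate 2 (0.0687), and that in day-7 TAC without its replicate 2 (0.0571). For Nr3c2 the day-7 TAC call ended without day-7 TAC replicate 1 or sham replicate 2 (up to 0.0601). Bdkrb2, the bradykinin type 2 receptor, fell by 1.34 in day-7 TAC (SE 0.33, limma adjusted p = 0.0126), on 8, 11 and 14 reads against 26, 37 and 21 in sham libraries. That call ended without sham replicate 2 (0.051). Bdkrb2 passed the filter only through its sham libraries, the group where it was highest.

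**Figure D5:**
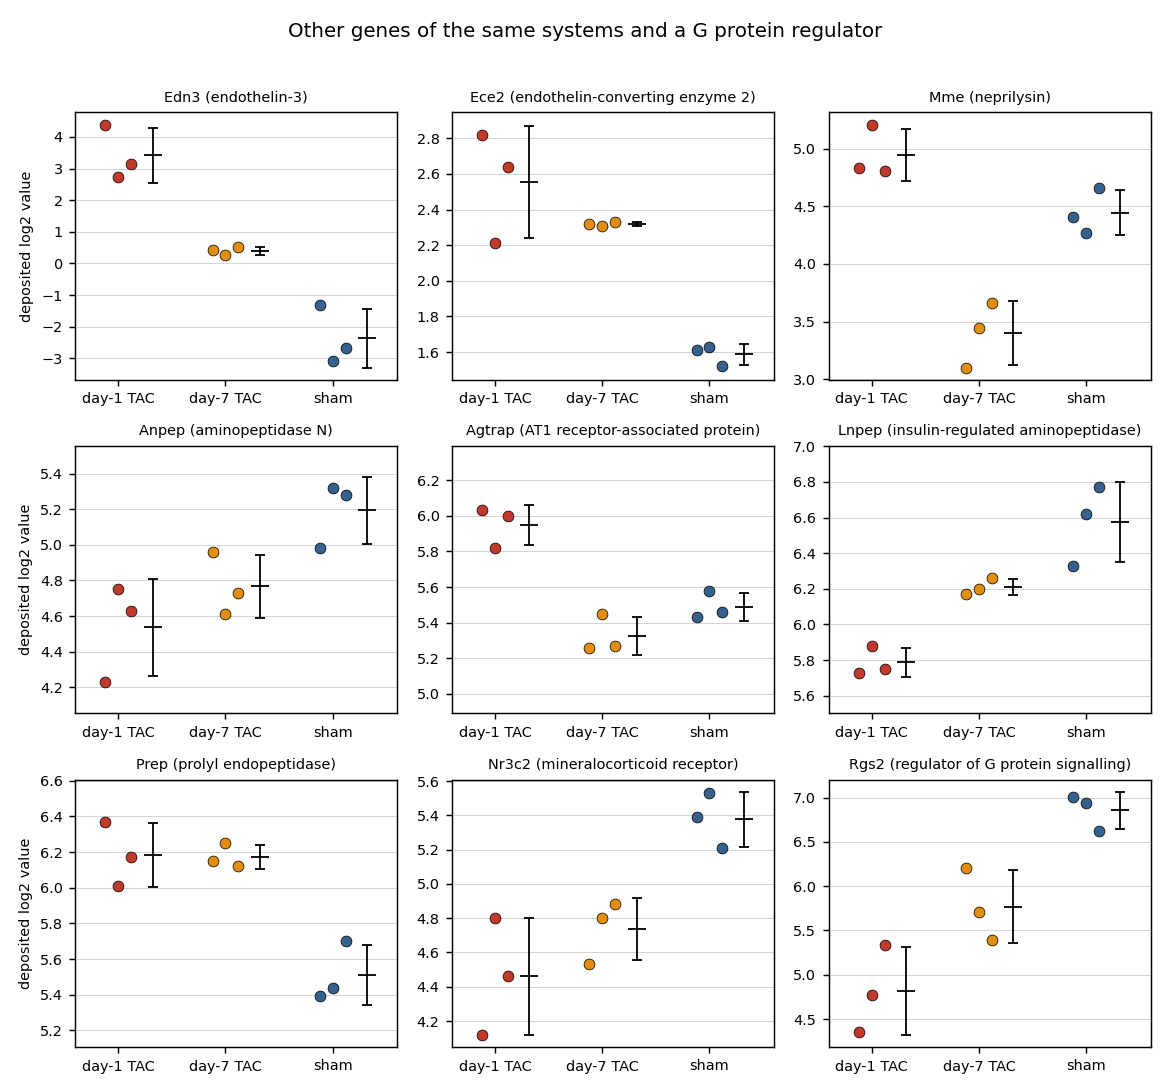
Deposited log2 values (vertical axis, TMM-scaled) of 9 further genes, Edn3, Ece2, Mme, Anpep, Agtrap, Lnpep, Prep, Nr3c2 and Rgs2, are drawn for the 3 libraries of day-1 TAC, day-7 TAC and sham with mean and SD. Edn3 climbs in day-1 TAC to between 2.72 and 4.39, Mme lies above sham in day-1 TAC and below it in day-7 TAC, and Prep is above sham in all 6 TAC libraries.

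The type 1 angiotensin receptor and the endothelin receptors signal through G proteins, with phospholipase C, inositol trisphosphate receptors and protein kinase C on the Gq route. A list of 30 genes, all tested, held these with other G protein subunits, their regulators, receptor kinases, arrestins and the exchange factors and kinases of a contractile route. In day-1 TAC against sham 2 were higher and 10 lower (median log2 difference −0.09), beside 14.3% higher, 20.5% lower and a median of −0.04 over all tested genes. In day-7 TAC against sham none was higher and 10 were lower (median −0.11), beside 13.8%, 15.1% and −0.01. In day-1 against day-7 TAC 2 were higher and 2 lower (median −0.03), beside 6.42%, 10.3% and −0.03. Rgs2, a GTPase activator that damps Gq signalling, fell by 2.04 in day-1 TAC (SE 0.25, limma adjusted p = 0.000385) and by 1.09 in day-7 TAC (SE 0.25, adjusted p = 0.0094) against sham. Its log2 values were 4.35, 4.77 and 5.34 in day-1 TAC and 6.21, 5.71 and 5.39 in day-7 TAC, against 7.01, 6.94 and 6.62 in sham libraries, with no overlap between the groups. Its difference between day-1 and day-7 TAC, −0.95 (SE 0.25, adjusted p = 0.0278), lost its call in 6 of 18 alternatives. Itpr1, the type 1 inositol trisphosphate receptor, fell by 0.80 in day-1 TAC and by 0.60 in day-7 TAC (SE 0.08 each, adjusted p = 0.000147 and 0.000634), and Itpr2 fell by 0.63 and 0.61 (SE 0.09 each, adjusted p = 0.00086 and 0.00128). Prkca, protein kinase C alpha, went the other way, rising by 0.94 in day-1 TAC against sham (SE 0.13, adjusted p = 0.000723) and by 0.79 against day-7 TAC (SE 0.13, adjusted p = 0.00474), with 0.15 in day-7 TAC against sham (adjusted p = 0.428). Grk5, a kinase that desensitises receptors, was 0.68 higher in day-1 than in day-7 TAC (SE 0.12, adjusted p = 0.00666). Rgs3, another Gq damper, was lower there by 0.31 (SE 0.09, adjusted p = 0.0446), a call lost in 11 of 18 alternatives.

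Genes known to be raised by angiotensin II or endothelin-1 in heart cells were counted as a further list, and they answer to load by other routes too. The list was chosen with earlier results of these data known, so its counts are not independent of them. Of 23 genes listed, 22 were tested, of which 14 were higher and none lower in day-1 TAC against sham (median log2 difference 0.73, beside −0.04 for all tested genes). In day-7 TAC against sham 11 were higher and none lower (median 0.48, beside −0.01), and in day-1 against day-7 TAC 7 were higher and 3 lower (median 0.19, beside −0.03). The shares called over all tested genes in these comparisons are those given for the signalling list. Timp1, an inhibitor of matrix proteases, rose by 2.08 in day-1 TAC (SE 0.20, limma adjusted p = 0.000131) and by 1.41 in day-7 TAC (SE 0.20, adjusted p = 0.000932). Atf3, a stress transcription factor, rose by 2.67 in day-7 TAC (SE 0.28, adjusted p = 0.000208), stood at 0.60 in day-1 TAC (SE 0.28, adjusted p = 0.114) and was lower by 2.07 in day-1 than in day-7 TAC (adjusted p = 0.00196). Egr1, an early growth response factor, was higher by 1.75 in day-1 than in day-7 TAC (SE 0.33, adjusted p = 0.00766).

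The genes most like each of the 6 that passed the 3-group test were sought among 11100 genes by the root mean square distance of the log2 values over the 9 libraries, each gene first centred on its own mean. The smaller this distance is beside the gene's own spread, the closer the likeness. For Agtr1a, whose own spread was 0.54, the closest were Dgkz (0.13), Aldh1l2 (0.14) and Dnajc28 (0.14). For Ednra, with a spread of 0.49, they were Mgrn1, Thbs2 and Sptb (0.12 each). For Agtr2, with a spread of 1.19, they were Gm17106 (0.34), Lad1 (0.36) and Fbp2 (0.44), and for Agt, with a spread of 0.81, Gm26621 (0.38), Ppargc1a (0.42) and Myh7 (0.43). Ece1 (spread 0.19) was matched by Ctcf and Zfp592 (0.06 each) and by an entry the table names Morf4l1Morf4l1 (0.06), and Enpep (spread 0.21) by Rock2 and Gm26518 (0.06 each) and Usp9x (0.07). The 9 genes themselves were left out of the search, so their likeness to each other was not measured.

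Markers of the cells that carry these receptors were read beside the results. Ednra and Agtr1a are known in pericytes and smooth muscle. Of 8 pericyte markers, 3 were lower in day-1 TAC against sham (Abcc9 at −1.08, Kcnj8 at −0.44 and Rgs5 at −0.30), 2 were higher (Cspg4 at 0.52 and Higd1b at 0.45) and Pdgfrb stood at 0.10. Their summed level was 1356 to 1635 in day-1 TAC and 1737 to 1824 in day-7 TAC, against 1908 to 2193 in sham libraries. That sum rests mostly on Rgs5 and Abcc9: the mean log2 value of the 8 was 5.99 to 6.17 in day-1 TAC and 6.10 to 6.15 in day-7 TAC, against 6.17 to 6.28 in sham libraries. Of 6 smooth muscle markers 1 was higher and none lower in day-1 TAC against sham. In day-7 TAC against sham Acta2 was higher (1.08) and Lmod1 lower (−0.90). Their sum was 342.1 to 544.8 in day-1 TAC and 554.3 to 629.8 in day-7 TAC, against 287.9 to 453.7 in sham libraries. It rests mostly on Acta2. The mean log2 value of the 6 was 4.35 to 4.69 in day-1 TAC and 4.25 to 4.74 in day-7 TAC, against 4.10 to 4.44 in sham libraries, so the groups overlapped. Of 8 fibroblast markers, cells known for Agtr1a, 2 were higher and Pdgfra was lower (−0.36) in day-1 TAC, with none called in day-7 TAC, and the sum was 2944 to 3390 in day-1 TAC and 2437 to 2974 in day-7 TAC, against 2394 to 2740 in sham libraries. Of 10 endothelial markers, for Edn1, Ednrb, Ece1 and Ace, 4 were lower in day-1 TAC, and 3 lower and 1 higher in day-7 TAC, with sums of 1440 to 1576 in day-1 TAC and 1513 to 1573 in day-7 TAC, against 1606 to 1689 in sham libraries. Of 5 Schwann and nerve markers tested 3 were lower in each TAC group against sham, with sums of 19.8 to 28.04 in day-1 TAC and 25.19 to 29.75 in day-7 TAC, against 37.59 to 38.84 in sham libraries. The part of any of these cells in the results on the 9 genes was not tested.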

How the data were processed

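Messenger RNA of the left ventricle was made into 9 libraries (3 per group) and sequenced in single-end reads of 50 cycles, as the labels' protocols say. The submitters' processing notes list STAR, Trim Galore and edgeR and the build mm10. Versions, annotation and strand setting are not given in the sources used. The authors deposited log2 values, named as TMM-scaled per the file headers, for 16710 rows. The 12 rows of 3 symbols that stand in several rows were left out, which left 16698 genes. Reads were recovered from the steps of the values (100.0% whole within 0.001 reads in every library), counting the lowest value of a library as 1 read. Had the authors added 1 read to every gene, which the values do not show either way, each number would be 1 too high. One sham column carries a replicate number and the other two share a name, so sham replicates 2 and 3 are numbered by column order only.

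Genes with a log2 value above 0 in at least 3 libraries (13712) were tested on the log2 scale with limma 3.58.1 in R 4.3.3, as 3 groups of all 9 libraries with an intensity trend, two-sided, with Benjamini-Hochberg adjustment over all genes tested and a threshold of 0.05. A count test was not run on the deposited log2 values, and limma voom on the recovered reads took its place as an alternative. The other alternatives were quantile normalization, scaling by total reads, 1 unit added before the log, no filter, a mean log2 value of at least 2, no intensity trend, fits of 2 groups only, each library left out in turn and a replicate block. The statistics were first tested on simulated data. Positions and exon lengths are from GENCODE on GRCm38, promoter windows from RefSeq. Named genes are all 9 members, called genes of the same systems, and up to 4 of lowest p per comparison of the signalling and response lists. The members and lists were chosen with earlier results of these data known. Intervals on reads cover counting error only. Some genes that the rule names are not reported here.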

Additional observations from a re-analysis of the deposited data

Results flagged for a closer look

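Effects differed between day-1 and day-7 TAC, in which age at surgery and time under load cannot be told apart. This was so for 4 of the 9 genes and 4 of 17 related ones tested, beside 16.7% of all tested genes. Calls for Agt, Ece1 and Lnpep were lost in some alternatives. Each value is the difference between the 2 effects, tested directly as day-1 against day-7 TAC in the fit across all genes. It was −1.63 for Agt, −1.94 for Agtr2, −0.25 for Ece1 and −0.84 for Ednra on the log2 scale, all lower in day-1 TAC. It was 1.55 for Mme, 0.63 for Agtrap and 3.02 for Edn3, higher in day-1 TAC, and −0.42 for Lnpep, lower in day-1 TAC. The groups of 3 libraries were too small to test single libraries as outliers.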

How the results depend on the processing

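Over the 465 recomputed differences of the 9 genes, 427 kept direction and side of the threshold, 23 lost a call, 7 gained one and 8 changed sign, and of 820 of the other named genes 771 kept both and 49 lost a call. Agtr1a against sham in both TAC groups, Agtr2 and Ednra in day-1 TAC against both other groups and Ece1 in day-1 TAC against sham kept their calls in every alternative run (Agtr2 was not tested under the filter at a mean of 2). The sign changes were all of uncalled differences. Enpep in day-1 against day-7 TAC became 0.02 under scaling by total reads and lay between −0.09 and 0.04 with 1 library left out (0.04 without day-1 TAC replicate 3). Edn1 in day-7 TAC against sham lay between −0.02 and 0.25, at −0.02 without day-7 TAC replicate 2 and −0.02 without sham replicate 1. Ednrb in day-1 TAC against sham lay between −0.36 and 0.01 (without sham replicate 1), and in day-7 TAC against sham between −0.07 and 0.31, at −0.01 without day-7 TAC replicate 2, −0.01 without sham replicate 2 and −0.07 without sham replicate 3. The cause was not tested. With 1 library left out, genes called were 3259 to 4525 in day-1 TAC against sham, 2594 to 4404 in day-7 TAC against sham (2594 without day-7 TAC replicate 2) and 1261 to 2491 in day-1 against day-7 TAC (1290, 1261 and 1300 without day-7 TAC replicates 1, 2 and 3). Members called were 4 to 6, 1 to 3 and 3 to 4 in the same order, with 1 in day-7 TAC against sham without day-7 TAC replicate 1 or 3 or sham replicate 2. The replicate numbers of the TAC libraries did not pair them: same-numbered deviations correlated at −0.224, −0.11 and −0.036. With the replicate block, 1167 genes were called between the TAC groups against 2287 without it, and 2 of the 9 genes against 4, as Agt (adjusted p = 0.0571) and Ece1 (0.0934) lost their calls. No paired analysis was possible because 2 sham columns carry the same name, for either comparison with sham. Without day-1 TAC replicate 1 or 3, chosen after seeing the data, counts of called list genes stayed within 1.5 times, except that 2 in place of 4 signalling genes differed between the TAC groups without replicate 1. Depth limits Agtr2 and Edn3 in their low groups.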

Other observations

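Mrgprd, which codes for a receptor of the angiotensin-derived peptide alamandine, was below the filter on low values and was looked at after its values were seen. It had 1, 1 and 2 reads in day-1 TAC and 12, 10 and 12 in day-7 TAC, against 1, 1 and 1 in sham libraries. The ratio of summed reads in day-7 TAC to those in sham, set on the deposited TMM scale, was 11.4 (exact 95% interval 3.6 to 58.2, counting error only). All sham libraries sit at the lowest value of the scale, which may stand for no reads, so the size of the difference is uncertain. Kel, a metalloprotease of red blood cells that cuts endothelin-3 precursor, had 7, 4 and 8 reads in day-1 TAC and 8, 6 and 9 in day-7 TAC, against 2, 4 and 2 in sham libraries.

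Macrophage markers also parted the TAC groups. Of 6 listed, 4 were higher in day-1 than in day-7 TAC and none lower (Cd68 by 1.10, Mrc1 by 0.93, C1qa by 0.76 and Csf1r by 0.51 on the log2 scale), and 3 were lower in day-7 TAC against sham. Their summed level was 110.7 to 153.2 in day-1 TAC and 76.41 to 86.8 in day-7 TAC, against 108.2 to 145.0 in sham libraries. Mme was lowest in day-7 TAC too, and the part of these cells in its result was not tested.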
